A study of Mus musculus with 6 samples.

Results

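Oxidative phosphorylation genes encode the respiratory complexes I to IV and the ATP synthase, complex V, of the inner mitochondrial membrane. Members were taken by symbol: protein-coding genes beginning Nduf, Sdha to Sdhd, Uqcr, Cox4 to Cox8 or Atp5, without Ndufa4l2 and Cox4i2, and the 13 protein genes of the mitochondrial genome, each with at least 60 reads summed over the 6 libraries. This gave 102 genes of 54146 gene identifiers, 89 nuclear and 13 mitochondrial, from 105 candidates. The 3 candidates left out were Cox7b2 with 6 reads, Cox8c with 5 and a second Atp5o identifier with 0. The weakest members kept were Cox6a2 with 60 reads, Cox8b with 111 and Cox6b2 with 130. The libraries were made from tumours of 4T1 cells, a mouse mammary carcinoma line, that were either wild type or knocked out for Ki-67 (Mki67-/-, called knockout below). The hosts were nude mice, in which T cells are scarce for want of a thymus. Inoculation was orthotopic, into mammary fat, and tumours were taken 3 weeks later, with 3 libraries per genotype. The tumour pieces also held host cells. Neither the number of knockout clones nor whether each library came from its own mouse is given in the labels, so the p-values below measure the spread between these libraries. In such bulk samples, fewer cells of a type and less RNA per cell cannot be told apart.

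Electrons from NADH enter at complex I and those from succinate at complex II. Complex III passes them to cytochrome c, and complex IV, cytochrome c oxidase, passes them to oxygen. The proton gradient built by complexes I, III and IV drives the ATP synthase. Complex II is encoded wholly in the nucleus, whereas the other complexes join nuclear subunits to subunits transcribed from the circular mitochondrial genome. Carcinoma cells, fibroblasts, macrophages, fat and muscle all express these genes, muscle and brown fat with isoforms of their own for a few subunits of complex IV.

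Gene counts per library were 37065778, 38334962 and 38399826 in the wild type and 30772729, 25239215 and 22081970 in the knockout. Levels below are in CPM, read counts scaled to a common library size with TMM factors. A difference is a log2 fold change, knockout minus wild type, from edgeR's quasi-likelihood test, called when its Benjamini-Hochberg adjusted p over all genes tested is under 0.05. Mki67, the targeted gene, was at 359, 394 and 324 CPM in the wild type and 98.5, 117 and 138 CPM in the knockouts, all lower (log2 fold change -1.61 ± 0.14 (SE), edgeR adjusted p = 6.79e-05). Knockout replicates 2 and 3 stood apart from the other 4 libraries, with 54.6% and 52.7% of read pairs unmapped against 30.8% to 33.9%. Pairs outside exons made up 9.24% to 11.1% in the wild type and 14.2%, 9.91% and 18.9% in the knockouts. The tumour epithelium markers Epcam, Krt18, Krt19 and Cdh1 were higher in the knockout, and Krt8 did not pass. All 9 macrophage markers were lower, their summed level being 5429 to 6319 CPM in the wild type and 951 to 1142 CPM in the knockout. All 9 adipocyte markers were higher, with sums of 102 to 149 CPM and 358 to 998 CPM. The part of these differences in the results below was not tested.

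Most oxidative phosphorylation genes moved little between the genotypes. In the fit without a covariate the medians of the 2 genomes lay on opposite sides of 0. Of all 102 members, 10 rose and 18 fell at an edgeR adjusted p under 0.05 and 74 did not pass. Over the 19900 genes tested, 36.0% were called, 17.6% higher and 18.4% lower. The called share of the members, 27.5%, was below that background and below the 41.6% of protein-coding genes tested. Among the 89 nuclear members 7 rose and 18 fell. Of the 13 mitochondrial members 3 rose and 0 fell by edgeR's test, and 0 were lower at an unadjusted p under 0.05 or with DESeq2. The median log2 fold change was -0.12 over the nuclear members and 0.42 over the mitochondrial members, beside 0.05 over all genes tested and -0.03 over protein-coding genes. With the unmapped share as a covariate the nuclear and mitochondrial medians were 0.0025 and -0.028. With the share of pairs outside exons as a covariate they were -0.11 and 0.27. With only the libraries under 40% unmapped, which keep knockout replicate 1 alone, they were -0.04 and -0.16. Changes were small: 78 of the 89 nuclear members lay within 0.5 of 0 on the log2 scale, and only Cox7a1 and Cox8b lay beyond 1. Cox8b, counted among the 10 that rose, passed the filter on low counts only through its knockout levels. Every knockout library was above every wild-type library for 14 members and below for 25, where all genes tested gave 24.5% and 26.0%. The counts changed when a library was left out. Without wild-type replicates 1, 2 and 3 in turn, 4, 3 and 2 members were higher and 4, 6 and 10 lower. Of all genes tested, 19.3%, 20.96% and 19.1% were then called. Without knockout replicates 1, 2 and 3, 17, 6 and 5 members were higher and 44, 18 and 4 lower, beside 43.3%, 42.2% and 24.8% of all genes called. The weight of single libraries on the members, apart from this shift in all genes, was not tested. The count of higher mitochondrial members was 10 without knockout replicate 1 and 1 when any other library was left out.

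**Figure D1:**
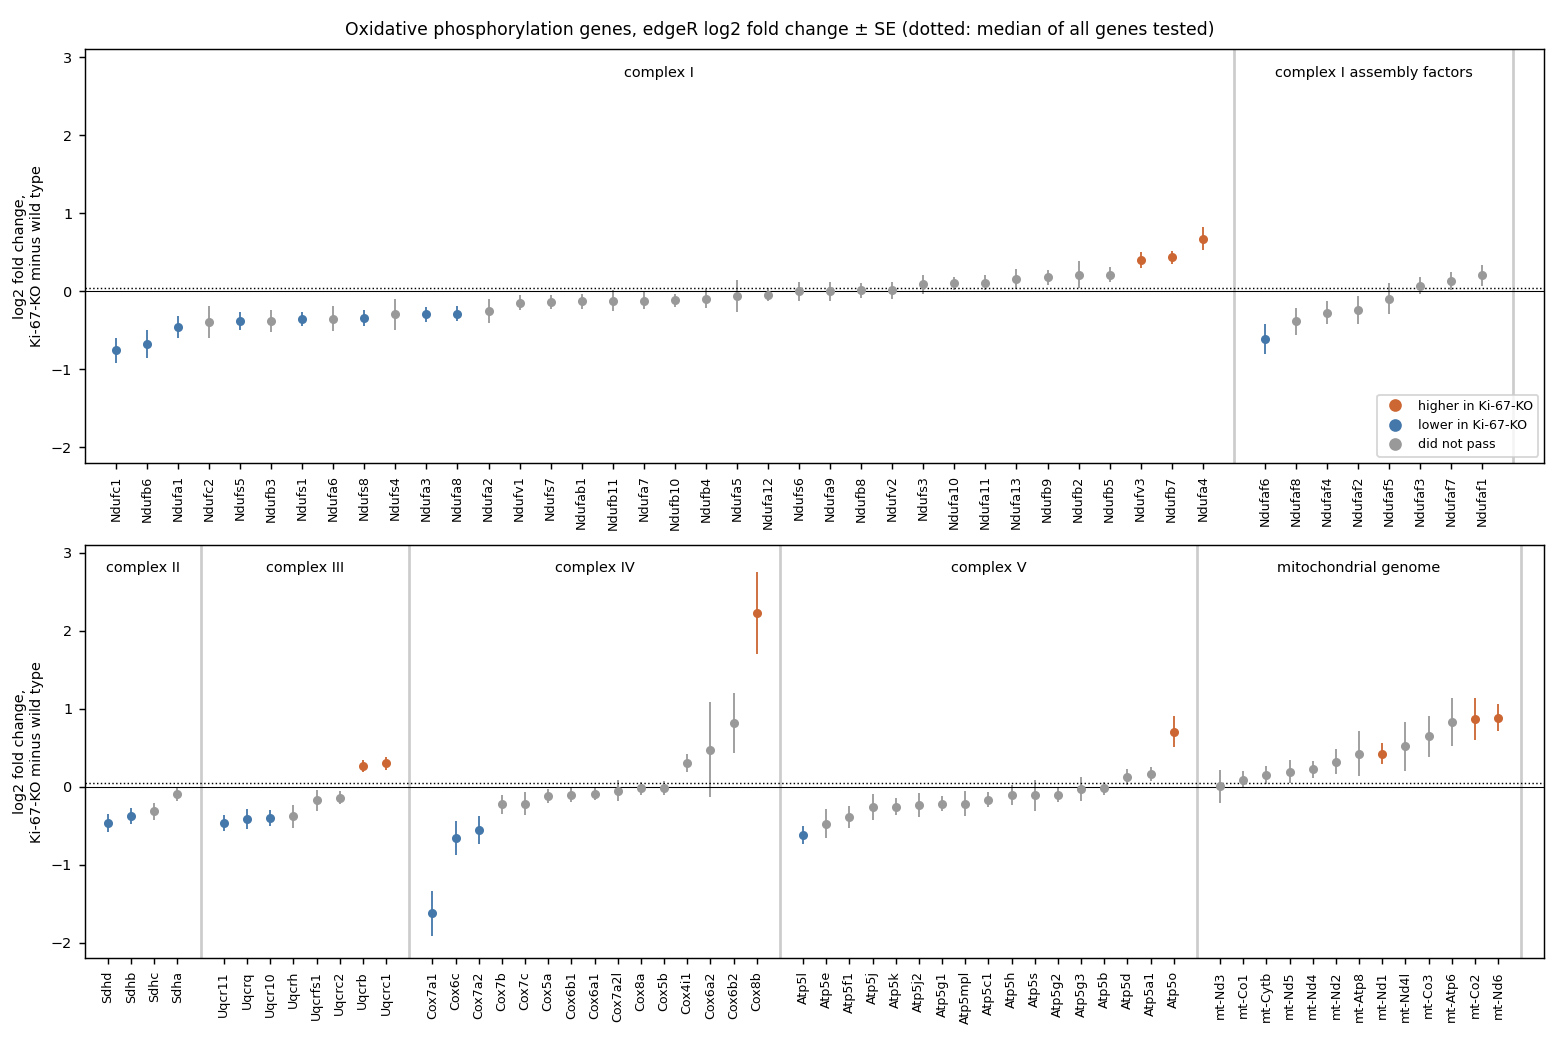
Log2 fold change (vertical axis, knockout minus wild type, with its standard error) of 101 of the 102 members (horizontal axis), by complex, with the mitochondrial genes last and the median of all genes tested as a dotted line at 0.05. Blue points, the 18 members called lower, all lie in nuclear panels, and all 13 mitochondrial points lie above 0, 3 of them called higher.

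Few calls of single genes held under every other setting. Of the 28 called members, Cox7a1, Ndufc1, Atp5l and mt-Nd6 passed under each of the 21 alternatives tried. Uqcr11 and Ndufa4 lost the call only when the share of pairs outside exons entered as a covariate. The other 22 lost it under at least 3 alternatives.

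The change was not alike in the 3 knockout libraries. Relative to the wild-type mean, the median log2 ratio of the nuclear members was 0.02 in knockout replicate 1, -0.22 in replicate 2 and -0.22 in replicate 3. The mitochondrial members gave -0.10, 0.43 and 0.68 in the same libraries. Knockout replicate 1 thus lay near the wild type on both measures, whereas the other 2 knockouts had lower nuclear and higher mitochondrial members. Below all 3 wild-type libraries were 30, 57 and 62 of the 89 nuclear members in knockout replicates 1, 2 and 3, or 33.7%, 64.04% and 69.7%, where all genes tested gave 39.98%, 42.7% and 42.7%. The medians of all genes tested were between -0.01 and 0.01 in the 3 libraries. Replicates 2 and 3 are also the libraries with the most unmapped pairs. With the unmapped share as a covariate, the nuclear and mitochondrial median log2 fold changes were 0.0025 and -0.028. The part of mapping in this contrast was not tested beyond that fit.

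**Figure D2:**
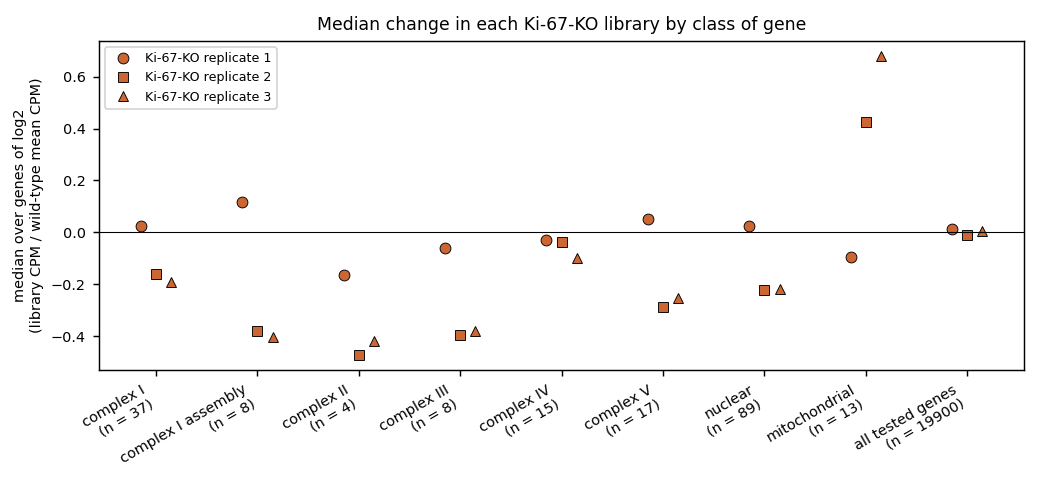
Median over the genes of a class of the log2 ratio of library CPM to wild-type mean CPM (vertical axis) for the 3 knockout libraries, by class (horizontal axis). Replicates 2 and 3 (square and triangle) sit together at -0.22 for nuclear members and at 0.43 and 0.68 for mitochondrial members, while replicate 1 (circle) is at 0.02 and -0.10.

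The ratio of mitochondrial to nuclear member counts carries the same contrast without any scaling factor. It was 1.39, 1.603 and 1.62 in the wild type and 1.47, 2.01 and 2.33 in the knockout. Knockout replicates 2 and 3 were above all wild-type libraries and replicate 1 was within their range. The mitochondrial protein genes took 1.37%, 1.501% and 1.46% of all gene counts in the wild type and 1.49%, 1.71% and 2.09% in the knockout, a mean of 1.44% ± 0.064 against 1.76% ± 0.30 (SD, n = 3 each). The nuclear members together took 0.988%, 0.937% and 0.899% in the wild type and 1.01%, 0.850% and 0.897% in the knockout. When knockout replicate 1 was left out, 44 nuclear members were lower and 7 higher, and 10 of the 13 mitochondrial members were higher, beside 22.7% of all genes lower and 20.6% higher. With the libraries under 40% unmapped alone, which keep only that knockout, the mitochondrial members gave 1 higher and 2 lower, in a fit where all spread comes from the wild type and the lone knockout is assumed to vary like it.

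The mitochondrial genome encodes 7 subunits of complex I, cytochrome b of complex III, 3 core subunits of complex IV and 2 subunits of the ATP synthase. Levels here are per kilobase of exon, with the exons of all annotated transcripts of a gene merged. For nuclear genes this length can exceed that of the mRNA, being 4237 bases for Atp5b. The order of nuclear genes and their distance from the mitochondrial genes therefore depend in part on the annotation. In the wild type they ran from 28.8 CPM per kilobase for mt-Nd4l to 3877 for mt-Co1, the catalytic subunit of cytochrome c oxidase, with a median of 391. The nuclear members had a median of 48.4 CPM per kilobase, with Cox8a (298), Cox6a1 (264) and Atp5b (227) at the top. mt-Cytb followed mt-Co1 at 2635 CPM per kilobase and mt-Nd1 at 2464, and the next gene, mt-Nd2, was at 939. Some of these counts are partial because of a nuclear copy described below.

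mt-Nd6, a membrane subunit of complex I at chrM:13552-14070 (GRCm38), is the only protein gene on the minus strand of the mitochondrial genome. Its level was 182, 199.7 and 228 CPM in wild-type replicates 1, 2 and 3 and 277, 405 and 445 CPM in the knockouts. All knockouts were above all wild-type libraries, and replicate 1 was the lowest of them. The rise (log2 fold change 0.89 ± 0.17 (SE), edgeR adjusted p = 0.00504) was the largest among the mitochondrial genes. The counts ignore strand, so reads of mt-Nd6 and of transcripts running antisense to it cannot be told apart.

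mt-Nd1, the membrane subunit next to the quinone pocket of complex I, was at 2237, 2537 and 2301 CPM in the wild type and 2652, 3074 and 3781 CPM in the knockouts. The groups did not overlap, although the gap between them was smaller than the wild-type range (log2 fold change 0.43 ± 0.14 (SE), edgeR adjusted p = 0.0420). mt-Co2, which takes electrons from cytochrome c, stood at 108, 115 and 108 CPM and 111, 236 and 259 CPM. It was called higher (log2 fold change 0.87 ± 0.27 (SE), edgeR adjusted p = 0.0328) although knockout replicate 1 lay within the wild-type range. Without that replicate its log2 fold change was 1.16.

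mt-Atp6, the proton channel subunit of the ATP synthase, missed the threshold with a like pattern, at 118, 118 and 105 CPM in the wild type and 100.04, 223 and 286 CPM in the knockouts (log2 fold change 0.83 ± 0.31 (SE), edgeR adjusted p = 0.0649). mt-Co3 gave 147, 133 and 129 CPM and 125, 211 and 305 CPM (log2 fold change 0.65 ± 0.26 (SE), edgeR adjusted p = 0.0858). In both genes replicate 1 was the lowest of all 6 libraries and replicates 2 and 3 the highest. mt-Co1 and mt-Cytb had smaller estimates than mt-Nd1. mt-Co1 was at 5761, 6137 and 6073 CPM and 6046, 5997 and 7115 CPM (log2 fold change 0.09 ± 0.11 (SE), edgeR adjusted p = 0.525), with only replicate 3 above the wild type. mt-Cytb was at 2883, 3145 and 3015 CPM and 2886, 3422 and 3732 CPM (log2 fold change 0.15 ± 0.12 (SE), edgeR adjusted p = 0.340). For these 2 genes knockout replicate 1 was within the wild-type range. mt-Nd2, mt-Nd4 and mt-Nd5, antiporter-like subunits of the membrane arm of complex I, had log2 fold changes of 0.32, 0.22 and 0.19 and did not pass. Neither did mt-Atp8, mt-Nd4l and mt-Nd3, at 0.42, 0.52 and 0.01. Over all 13 genes, knockout replicate 3 exceeded all wild-type libraries in 13, replicate 2 in 11 and replicate 1 in 2. Of the 19900 genes tested, 8626 did so in replicate 3, 8424 in replicate 2 and 8251 in replicate 1.

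**Figure D3:**
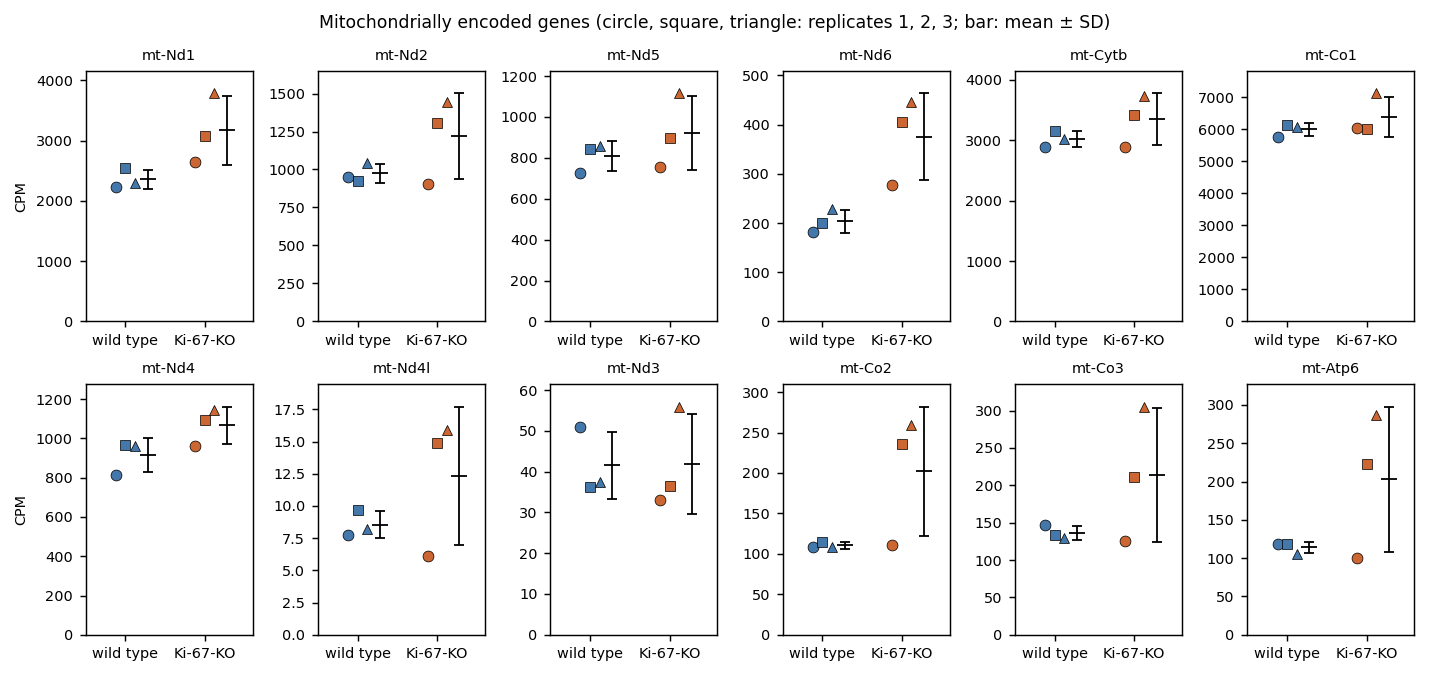
CPM (vertical axes, each from 0) of 12 of the 13 mitochondrial protein genes in each library, with the mean and SD of each group of 3 as a bar; mt-Atp8 is not drawn. Knockout replicates 2 and 3 (orange square and triangle) lie above the blue wild-type points in most panels, and replicate 1 (circle) is above them only for mt-Nd1 and mt-Nd6.

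A near-exact copy of part of the mitochondrial genome lies on chromosome 1 and bears on how these genes were counted. The annotation names pieces of it on the minus strand between chr1:24611535 and 24616197 (GRCm38). Gm28661 matched mt-Co2 at 681 of 681 aligned bases, Gm28437 matched mt-Co3 at 783 of 783 and Gm10925 matched mt-Atp6 at 678 of 678. Gm10222 and mt-Nd4l shared 294 of 294 bases, Gm28438 and mt-Nd3 344 of 345. For mt-Nd4 the copy, Gm28439, covered 63.6% of the gene and for mt-Co1 the copy, Gm29216, covered 31.3%. The first 60 bases of 2 such pairs are shown to let the identity be seen, with capitals at a base where the pair differs.
mt-Nd3: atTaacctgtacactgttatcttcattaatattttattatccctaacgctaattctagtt
Gm28438: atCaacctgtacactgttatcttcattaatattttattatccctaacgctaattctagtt
mt-Co2: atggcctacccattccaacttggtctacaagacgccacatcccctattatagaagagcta
Gm28661: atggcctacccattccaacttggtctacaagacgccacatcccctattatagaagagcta
Read pairs that lie wholly in such a stretch map to both places and were left out by a count of unique pairs. The counts of mt-Co2, mt-Co3, mt-Atp6, mt-Nd3 and mt-Nd4l, and part of those of mt-Nd4 and mt-Co1, are therefore uncertain, and their levels per length are not comparable with those of mt-Nd1, mt-Nd2, mt-Nd5, mt-Nd6 and mt-Cytb, for which no copy is annotated there. mt-Atp8 as a whole was not compared with a copy. It shares 21.1% of its exonic bases with the start of mt-Atp6, which Gm10925 matched from the first base, so its count is uncertain too. Gm28661 itself stood at 132, 142 and 127 CPM in the wild type and 152, 223 and 248 CPM in the knockouts (log2 fold change 0.64 ± 0.17 (SE), edgeR adjusted p = 0.0174). Gm10925 was at 124, 129 and 115 CPM and 107, 242 and 333 CPM (log2 fold change 0.89 ± 0.33 (SE), edgeR adjusted p = 0.0638). At both copies replicates 2 and 3 of the knockout were highest, as for mt-Co2 and mt-Atp6. Gm28437, the copy of mt-Co3, was at 159.6, 166 and 150.1 CPM and 152, 152 and 223 CPM (log2 fold change 0.15 ± 0.15 (SE), edgeR adjusted p = 0.471), with only knockout replicate 3 above the wild type. Gm28438, the copy of mt-Nd3, was at 24.4, 21.1 and 23.3 CPM and 19.6, 6.55 and 12.03 CPM (log2 fold change -0.84 ± 0.32 (SE), edgeR adjusted p = 0.0683), below the wild type in every knockout.

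Complex I oxidises NADH and, in mammals, is the largest of the complexes. Of its 37 nuclear subunits 8 fell, 3 rose and 26 did not pass, with a median log2 fold change of -0.12. The lower share of 21.6% was near the 18.4% of all genes and 22.6% of protein-coding genes, and the count follows the Nduf symbol, so it takes in Ndufa4. Ndufc1, a small accessory subunit of the membrane arm encoded at chr3:51404677-51408988, gave 45.4, 41.1 and 40.7 CPM in the wild type and 32.4, 20.98 and 21.7 CPM in the knockouts. All knockouts were lower, replicates 2 and 3 more than replicate 1 (log2 fold change -0.76 ± 0.17 (SE), edgeR adjusted p = 0.00831). Ndufb6, also of the membrane arm, fell from 36.4, 29.4 and 29.9 CPM to 26.01, 17.2 and 16.4 CPM (log2 fold change -0.68 ± 0.18 (SE), edgeR adjusted p = 0.0203), and 39.0% of its exonic bases are shared with Smim27. Ndufs1 carries iron-sulfur clusters of the electron path and was at 87.1, 85.2 and 81.4 CPM and 73.03, 63.6 and 61.7 CPM (log2 fold change -0.35 ± 0.09 (SE), edgeR adjusted p = 0.0181). In each of these 3 genes the groups did not overlap. The remaining lower subunits were Ndufs8, another core iron-sulfur subunit (-0.34), and the accessory subunits Ndufa1 (-0.46), Ndufs5 (-0.38), Ndufa3 (-0.30) and Ndufa8 (-0.29).

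Among the higher genes with an Nduf symbol, Ndufa4 changed most. It is named for complex I but its protein is now assigned to cytochrome c oxidase, although the counts per complex given here follow the symbol. Ndufa4, at chr6:11900292-11907497, was at 219, 183 and 182 CPM in the wild type and 374, 256 and 301 CPM in the knockouts (log2 fold change 0.67 ± 0.15 (SE), edgeR adjusted p = 0.00823). Here knockout replicate 1 was the highest library, unlike its place among the mitochondrial genes. Ndufb7, an accessory subunit, rose from 62.1, 59.2 and 57.5 CPM to 85.5, 79.96 and 75.8 CPM (log2 fold change 0.43 ± 0.09 (SE), edgeR adjusted p = 0.00540). Ndufv3, an accessory subunit of the NADH-binding module, rose from 53.6, 52.3 and 49.2 CPM to 60.3, 74.2 and 69.9 CPM (log2 fold change 0.40 ± 0.10 (SE), edgeR adjusted p = 0.0155). The groups did not overlap for these genes either. The core subunits Ndufv1, which binds NADH, and Ndufs7, which carries an iron-sulphur cluster, gave log2 fold changes of -0.15 ± 0.10 (SE) and -0.14, and neither passed.

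Assembly factors named Ndufaf put complex I together without staying in it. Of the 8, only Ndufaf6 passed, falling from 11.6, 8.54 and 8.86 CPM to 7.76, 5.36 and 5.798 CPM (log2 fold change -0.61 ± 0.19 (SE), edgeR adjusted p = 0.0363). Its wild-type replicate 1 was the highest and the groups did not overlap, by a gap of under 1 CPM. The other 7 ranged from -0.39 for Ndufaf8 to 0.20 for Ndufaf1 on the log2 fold change scale. Ndufaf2 shares 65.6% of its exonic bases with another gene and its value (-0.24) is uncertain.

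Complex II, succinate dehydrogenase, also works in the citric acid cycle. Sdhd, a membrane anchor, was at 139, 130.5 and 128 CPM in the wild type and 113, 87.9 and 87.8 CPM in the knockouts (log2 fold change -0.46 ± 0.12 (SE), edgeR adjusted p = 0.0156). Sdhb, the iron-sulfur subunit, was at 124, 111 and 107 CPM and 97.8, 79.7 and 86.5 CPM (log2 fold change -0.38 ± 0.11 (SE), edgeR adjusted p = 0.0233). All 3 knockouts were below all wild-type libraries in both genes. Sdhc, the other anchor, did not overlap between groups either but missed the threshold at 189, 174 and 177 CPM and 167, 134 and 133 CPM (log2 fold change -0.32 ± 0.11 (SE), edgeR adjusted p = 0.0514). Sdha, the flavoprotein that oxidises succinate, overlapped (log2 fold change -0.10 ± 0.09 (SE), edgeR adjusted p = 0.426). The summed level of the 4 subunits was 622, 590.0 and 576 CPM in the wild type and 547, 463 and 453 CPM in the knockout, the wild-type libraries all being higher.

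Of the 8 nuclear members of complex III 3 fell, 2 rose and 3 did not pass. Over all genes tested 18.4% fell and 17.6% rose. Every knockout library was below every wild-type library for 26.0% of all genes and above for 24.5%. Uqcr11, a small accessory subunit, was at 87.4, 82.9 and 76.4 CPM in the wild type and 66.96, 56.3 and 56.00 CPM in the knockouts (log2 fold change -0.46 ± 0.10 (SE), edgeR adjusted p = 0.00917). Uqcr10 was at 78.6, 75.6 and 65.2 CPM and 59.6, 54.1 and 52.2 CPM (log2 fold change -0.40 ± 0.10 (SE), edgeR adjusted p = 0.0157). Uqcrq was at 139, 109 and 99.98 CPM and 92.8, 82.96 and 84.3 CPM (log2 fold change -0.42 ± 0.13 (SE), edgeR adjusted p = 0.0333). These 3 small subunits were lower in every knockout library. Uqcrc1, a large core subunit facing the matrix, was at 201, 198 and 189.8 CPM in the wild type and 247, 253 and 228 CPM in the knockouts (log2 fold change 0.30 ± 0.08 (SE), edgeR adjusted p = 0.0228). Uqcrb, a quinone-binding subunit, was at 43.7, 42.5 and 40.9 CPM and 51.4, 50.6 and 50.8 CPM (log2 fold change 0.27 ± 0.08 (SE), edgeR adjusted p = 0.0324), a call lost under 13 alternatives. Both were higher in every knockout library. Uqcrc2, the partner of Uqcrc1 in the core, and Uqcrfs1, the Rieske iron-sulfur protein, did not pass (-0.14 and -0.17), nor did Uqcrh (-0.38, edgeR adjusted p = 0.0693).

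**Figure D4:**
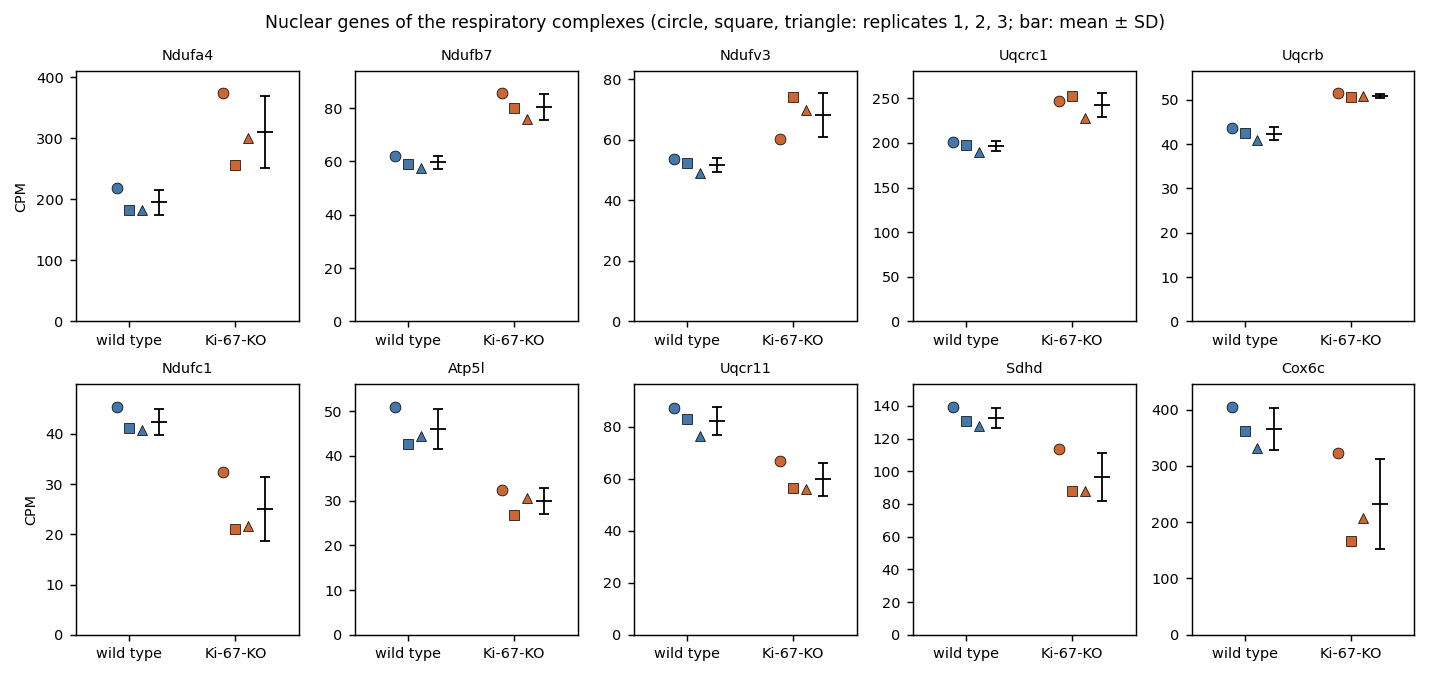
CPM (vertical axes, each from 0) of 5 nuclear members called higher (upper row) and 5 called lower (lower row) in each library, with the mean and SD of each group of 3 as a bar. The groups do not overlap in any of the 10 panels; among the lower genes the circle, knockout replicate 1, is nearest the wild type.

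Complex IV holds tissue isoforms. Among its 15 nuclear genes Cox8b rose, Cox7a1, Cox6c and Cox7a2 fell and 11 did not pass. The lower share of 20% was near the 18.4% of all genes, and the higher share of 6.67% was below their 17.6%. Cox6c, an accessory subunit, was at 405, 361 and 331 CPM in the wild type and 322, 167 and 208 CPM in the knockouts (log2 fold change -0.65 ± 0.22 (SE), edgeR adjusted p = 0.0438). Replicate 1 of the knockout lay just below the lowest wild-type library and the other 2 far below. Cox4i1, the main form of the regulatory subunit 4, was at 286, 259 and 248 CPM and 371, 295 and 315 CPM, higher in every knockout but short of the threshold (log2 fold change 0.31 ± 0.11 (SE), edgeR adjusted p = 0.0607). Cox5a, Cox5b, Cox6a1, Cox6b1, Cox7a2l and Cox8a had log2 fold changes between -0.12 and -0.01 and none passed.

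Both the muscle and the ubiquitous isoform of subunit 7a fell, in different order among the knockouts. Cox7a1, the form of heart and skeletal muscle, was at 3.197, 2.38 and 2.93 CPM in the wild type and 0.844, 1.26 and 0.644 CPM in the knockouts (log2 fold change -1.62 ± 0.29 (SE), edgeR adjusted p = 0.00333). All knockouts were below all wild-type libraries. Its levels are low, with a highest value of 3.20 CPM. Cox7a2, the ubiquitous form, was at 141, 136 and 127 CPM and 122, 71.1 and 82.2 CPM (log2 fold change -0.55 ± 0.18 (SE), edgeR adjusted p = 0.0423). Here replicate 1 of the knockout was nearest the wild type, whereas replicate 2 was nearest for Cox7a1. The call of Cox7a2 was lost under 11 alternatives, as was that of Cox6c. Skeletal muscle markers moved the other way: 12 of 13 tested rose, their sum was 79.1, 65.8 and 65.2 CPM in the wild type and 104, 136 and 119 CPM in the knockout, and Tnnc2 was listed at 0 in all 6 libraries. For example myoglobin, Mb, rose from 0.799, 0.661 and 0.347 CPM to 2.31, 3.27 and 3.35 CPM (log2 fold change 2.30 ± 0.34 (SE), edgeR adjusted p = 0.00129).

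Cox8b, the form of subunit 8 in muscle and brown fat, was at 0.276, 0.238 and 0.187 CPM in the wild type and 0.455, 1.66 and 1.25 CPM in the knockouts (log2 fold change 2.23 ± 0.52 (SE), edgeR adjusted p = 0.0115). Replicates 2 and 3 of the knockout were well above replicate 1, which was itself above the wild type. The adipocyte marker sum of 149, 102 and 106 CPM in the wild type and 358, 998 and 455 CPM in the knockout was also highest in knockout replicate 2. Of the brown fat markers, Dio2 fell (log2 fold change -1.38 ± 0.24 (SE), edgeR adjusted p = 0.00285), Elovl3 did not pass (1.56), and Ucp1 and Cidea were below the filter on low counts, Ucp1 at 0.165, 0.106 and 0.213 CPM and 0.227, 1.26 and 3.14 CPM. Cox8a, the ubiquitous form, stood at 189, 191 and 173 CPM and 188, 185 and 173 CPM with overlapping groups (log2 fold change -0.02 ± 0.09 (SE), edgeR adjusted p = 0.881). Cox6a2, the muscle form of subunit 6a, did not separate the groups at 0.0827, 0.3701 and 0.347 CPM and 0.487, 0.197 and 0.429 CPM (log2 fold change 0.48 ± 0.61 (SE), edgeR adjusted p = 0.564). Cox6b2, known from testis, missed the threshold (log2 fold change 0.82 ± 0.39 (SE), edgeR adjusted p = 0.130). The part of muscle or fat in the levels of these isoforms was not tested.

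**Figure D5:**
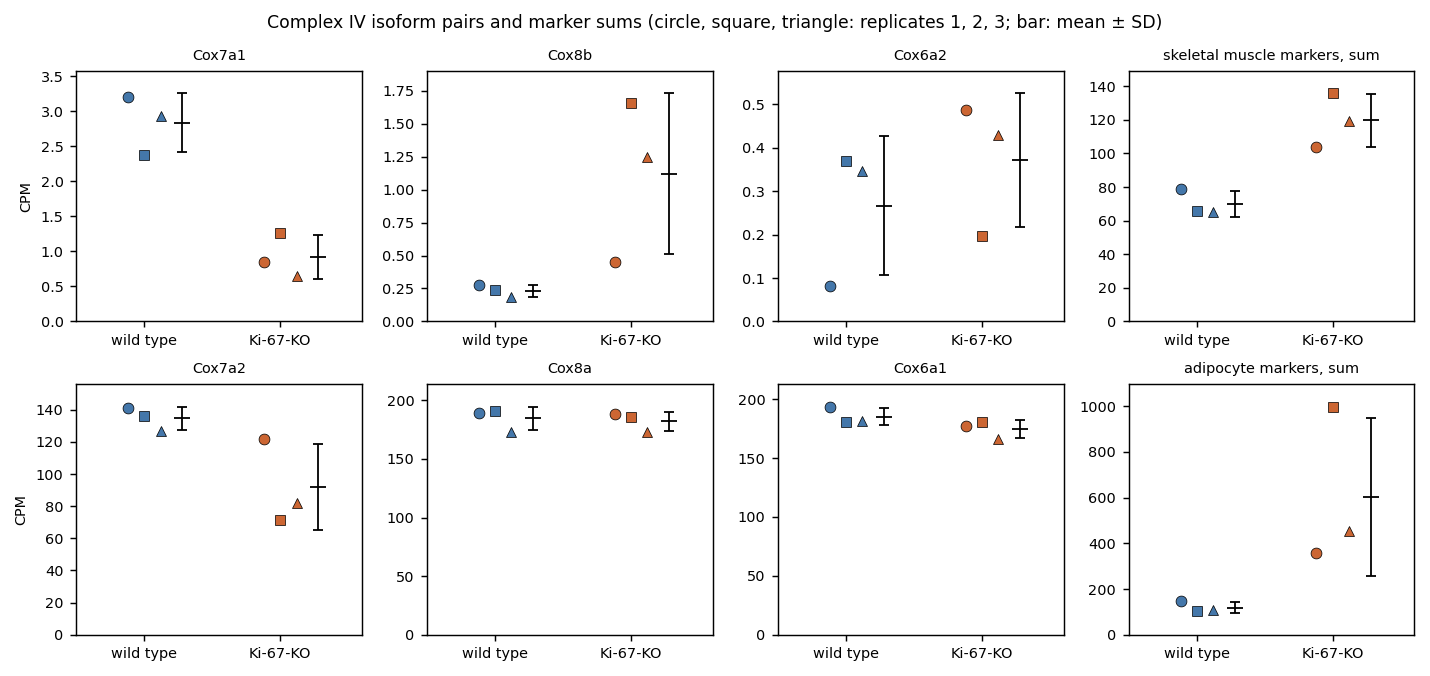
CPM (vertical axes, each from 0) of tissue-restricted complex IV isoforms (upper row) above their widely expressed counterparts (lower row), with the summed skeletal muscle and adipocyte markers at the right, in each library; bars are the mean and SD of 3. Cox7a1 is lower and Cox8b and both marker sums are higher in every knockout, while Cox6a2, Cox8a and Cox6a1 overlap.

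Of the 17 nuclear members of the ATP synthase, Atp5l was lower, Atp5o was higher and 15 did not pass. Their called share was 11.8%, beside 12.5% of the complex I assembly factors and 36.0% of all genes tested. Atp5l, subunit g in the membrane part, is encoded at chr9:44912557-44920742. It was at 51.01, 42.6 and 44.5 CPM in the wild type and 32.5, 26.9 and 30.5 CPM in the knockouts (log2 fold change -0.62 ± 0.11 (SE), edgeR adjusted p = 0.00352). All knockouts were lower and lay close together. Atp5o, the subunit at the top of the stator stalk, was at 12.1, 10.6 and 12.03 CPM and 12.9, 22.8 and 21.2 CPM (log2 fold change 0.71 ± 0.20 (SE), edgeR adjusted p = 0.0258). Knockout replicate 1 barely exceeded the wild type, and 47.9% of its exonic bases are shared with other annotated genes, so this value is uncertain. Atp5b, the catalytic subunit, did not pass, at 972, 982 and 936 CPM and 994, 959 and 895 CPM (log2 fold change -0.02 ± 0.09 (SE), edgeR adjusted p = 0.869). Atp5a1, its partner in the head, gave 603, 614 and 591 CPM and 721, 669.8 and 635 CPM, higher in every knockout without passing (log2 fold change 0.16 ± 0.09 (SE), edgeR adjusted p = 0.181). Atp5g1, Atp5g2 and Atp5g3 encode the same subunit of the rotor ring and had log2 fold changes of -0.22, -0.10 and -0.03, with no call. Atp5e and Atp5f1, of the central and peripheral stalks, missed the threshold (-0.47, edgeR adjusted p = 0.0840, and -0.38, 0.0626).

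NRF1 and the ETS factor GABP are known regulators of respiratory chain promoters. RefSeq promoters, 250 bases before to 50 after a start site on GRCm38.p6, were matched for 73 of the 89 nuclear members. The NRF1 core searched was GCATGCGC and the ETS core was CCGGAAG, each on both strands, and the 2 motifs can share 1 end base. The NRF1 core was present in 12 of 73 member promoters, 16.4%, and in 4.64% of the 12574 promoters of tested genes. It was found in 4 of 14 lower members, 1 of 6 higher members and 7 of 53 without a call. The ETS core was present in 17 of 73, 23.3%, against 16.0% of the 12574, in 6 of 14 lower, 1 of 6 higher and 10 of 53 without a call. Both cores were held by 5 members, of which Uqcr11, Atp5l and Sdhb were lower and Atp5k and Cox6a1 had no call, while Uqcrc1, which was higher, holds the NRF1 core in a stretch that reads as that core on either strand. The promoters of the called members among these are printed to show where the cores lie, with matches in capitals.
Uqcr11 promoter (chr10:80406772-80407071, minus strand): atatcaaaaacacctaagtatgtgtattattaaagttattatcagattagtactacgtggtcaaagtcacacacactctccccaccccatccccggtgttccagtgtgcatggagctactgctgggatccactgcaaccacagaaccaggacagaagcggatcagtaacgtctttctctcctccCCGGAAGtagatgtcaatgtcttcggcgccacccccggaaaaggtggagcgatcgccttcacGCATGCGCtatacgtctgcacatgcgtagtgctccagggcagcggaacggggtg
Atp5l promoter (chr9:44920693-44920992, minus strand): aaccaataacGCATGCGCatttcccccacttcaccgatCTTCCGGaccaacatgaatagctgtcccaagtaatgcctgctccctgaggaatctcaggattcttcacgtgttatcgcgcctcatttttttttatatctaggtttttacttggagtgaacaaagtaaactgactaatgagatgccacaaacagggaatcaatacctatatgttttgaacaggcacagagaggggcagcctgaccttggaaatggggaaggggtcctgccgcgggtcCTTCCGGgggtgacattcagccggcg
Sdhb promoter (chr4:140961021-140961320, plus strand): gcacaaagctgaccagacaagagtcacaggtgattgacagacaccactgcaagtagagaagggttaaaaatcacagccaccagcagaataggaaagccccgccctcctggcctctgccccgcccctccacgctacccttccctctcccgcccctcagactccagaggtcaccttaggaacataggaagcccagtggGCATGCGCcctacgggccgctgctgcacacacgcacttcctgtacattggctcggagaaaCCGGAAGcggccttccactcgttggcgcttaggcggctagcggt
Uqcrc1 promoter (chr9:108936398-108936697, plus strand): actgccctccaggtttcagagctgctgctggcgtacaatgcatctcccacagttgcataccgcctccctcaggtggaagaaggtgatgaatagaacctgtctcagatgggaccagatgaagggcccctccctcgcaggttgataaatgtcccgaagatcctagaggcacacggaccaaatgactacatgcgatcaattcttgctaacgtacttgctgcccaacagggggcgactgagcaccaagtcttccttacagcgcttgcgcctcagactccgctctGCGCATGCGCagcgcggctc
A match is a description of these letters and not evidence of binding. The most changed lower subunits, Cox7a1 and Ndufc1, and the higher Ndufa4 held neither core in the window. The mRNA of Gabpa, the DNA-binding subunit of GABP, was at 72.5, 61.96 and 66.5 CPM in the wild type and 52.02, 42.4 and 48.7 CPM in the knockouts (log2 fold change -0.49 ± 0.11 (SE), edgeR adjusted p = 0.00825).

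By position, the 3 members on chromosome 8 were Ndufb7, Cox4i1 and Ndufa13, with log2 fold changes of 0.43, 0.31 and 0.15. Genes tested on that chromosome had a median of 0.44 and 43.3% were called higher, so these 3 members were below their chromosome's median. Of 6 members on chromosome 4, Ndufb6, Ndufs5, Ndufaf6 and Sdhb were lower, where 23.4% of tested genes of the chromosome were. On chromosome 9, 3 of 6 members were lower and 1 higher, where 19.3% and 16.6% of tested genes were. Chromosome 11 had 2 of 5 members lower, where 21.1% of tested genes were. The part of position in the calls was not tested. Ndufa4 lies on chromosome 6, where the median was 0.26 and 26.5% were higher.

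Other genes of the pathway were read from lists of known function. Of 34 tested assembly factors without an Nduf symbol 8 fell and 1 rose, 23.5% and 2.94%, beside 18.4% and 17.6% of all genes and 22.6% and 19.03% of protein-coding genes. Their share of lower calls was thus near the background. Their median log2 fold change was -0.21 beside 0.05 over all genes, and by library the median against the wild-type mean was -0.02, -0.28 and -0.38 in knockout replicates 1, 2 and 3. Tmem126b, which builds the membrane arm of complex I, was at 27.3, 22.05 and 24.9 CPM and 16.8, 12.9 and 10.9 CPM (log2 fold change -0.87 ± 0.17 (SE), edgeR adjusted p = 0.00473). Coa3 and Coa7 help build complex IV and had log2 fold changes of -0.66 and -0.60, and Atpaf1, which assembles the head of the ATP synthase, -0.65, each called lower. Ecsit, another complex I assembly factor, was the gene called higher (0.59), and Sco2 was listed at 0. Among 10 electron carriers and entry enzymes, Sqor, which oxidises sulfide, fell (-0.83) and Dhodh, of pyrimidine synthesis, rose (0.57). Cyc1, the cytochrome of complex III that the symbol rule leaves out, did not pass (log2 fold change -0.19 ± 0.10 (SE), edgeR adjusted p = 0.166).

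Of 16 tested genes that transcribe and replicate the mitochondrial genome 4 fell and 1 rose, where 18.4% of all genes fell and 17.6% rose. Tfam packages and transcribes mitochondrial DNA and was at 56.8, 52.5 and 57.99 CPM in the wild type and 49.3, 31.98 and 33.1 CPM in the knockouts (log2 fold change -0.55 ± 0.16 (SE), edgeR adjusted p = 0.0290). Tfb2m, needed to start transcription, was at 31.9, 32.6 and 30.9 CPM and 21.1, 21.02 and 21.6 CPM (log2 fold change -0.58 ± 0.09 (SE), edgeR adjusted p = 0.00160). Both were below the wild type in every knockout. Twnk, the replicative helicase, and Lrpprc, which stabilises mitochondrial mRNA, also fell (-0.42 and -0.26), and Tfb1m, an rRNA methyltransferase, rose (0.50). Of the 21 alternatives 9 lost the call of Tfam, 11 that of Tfb1m, 4 that of Twnk and 0 that of Tfb2m. Of the mitochondrial ribosome, 6 of 48 large-subunit genes fell and 2 rose, and 3 of 31 small-subunit genes fell and 2 rose. Mrpl17 had the largest fall of these (log2 fold change -0.76 ± 0.11 (SE), edgeR adjusted p = 0.00140).

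Further mitochondrial functions showed calls in both directions, where 17.6% of all genes tested were higher and 18.4% lower. Of 20 genes of the citric acid cycle and pyruvate dehydrogenase, 4 fell and 2 rose, or 20% and 10%. Idh2, which makes NADPH in mitochondria, was at 212, 218 and 214 CPM in the wild type and 165, 157 and 153 CPM in the knockouts (log2 fold change -0.44 ± 0.08 (SE), edgeR adjusted p = 0.00369). Outer membrane, import and chaperone genes gave 4 higher and 0 lower of 21 by edgeR, with 1 lower at an unadjusted p under 0.05 and 1 with DESeq2. Their higher share of 19.0% was near that of all genes. The higher genes were the channels Vdac2 (0.31) and Vdac3 (0.68), the import motor protein Timm44 (0.57) and the prohibitin Phb2 (0.33). Of 13 genes of inner membrane folding, fission and fusion, Immt rose (0.34) and Fis1 and Yme1l1 fell (-0.52 and -0.51), while Micos10 and Micos13 matched no identifier. Among 8 tested antioxidant and uncoupler genes, Sod2 and Txnrd2 rose (0.52 and 0.61) and Gpx4, Ucp2 and Txn2 fell (-0.59, -0.46 and -0.26). Of 13 regulators of mitochondrial biogenesis, Gabpa, Sirt1 and Sirt3 fell (-0.49, -0.58 and -0.62) and Ppard and Pprc1 rose (0.70 and 0.39).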

How the data were processed

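RNA from the tumours was sequenced as paired reads and, per the submitters' processing notes, the reads were handled with FastQC, STAR 2.6.0c and DESeq2 on GRCm38. Strand settings, filters and the annotation release are not given in the sources used here. The deposited tables hold raw read counts per gene from the authors, unstranded and for each strand. The unstranded counts were used, since the first stranded column holds 50.1% to 50.2% of the stranded counts. The 4 rows that name no gene (unmapped 30.8% to 54.6%, multimapping 3.12% to 4.39%, outside exons 9.24% to 18.9% and ambiguous 4.98% to 6.23% of the pairs they refer to) were left out of library sizes and tests. Symbols came from GENCODE M21, which matched 54079 of 54146 identifiers.

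The genotypes were compared with the quasi-likelihood test of edgeR 4.0.16 (R 4.3.3) on all 6 libraries, with filterByExpr, TMM and no covariate, and p-values were adjusted by Benjamini-Hochberg over the 19900 genes tested, at a threshold of 0.05. All 102 members passed the filter on low counts. Values of 1 member are not reported here singly, though it is in every count and median. CPM stands for TMM-scaled counts relative to library size. The fit was tested on simulated data. Calls between genes that overlap are uncertain without strand. The alternatives were DESeq2 1.42.0, other scalings, filters and count columns, covariates for unmapped pairs and for pairs outside exons, trends with GC content and length removed, a replicate block and each library left out. The planned exact permutation test of the mitochondrial share, whose smallest p is 0.10 with 3 against 3, is not given because the share sums over members chosen with results known. Named genes were the mitochondrial genes, up to 4 per complex and direction with the smallest p among the called, the extremes and the most abundant per complex, core subunits, isoforms, up to 4 per pathway list, and Mki67; other called members and pathway genes named were added after their values were seen. The members and lists were chosen with earlier results of these data known. Motifs were searched and sequences compared with Python 3.11.15 and Biopython 1.88.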

Additional observations from a re-analysis of the deposited data

How the results depend on the processing

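Counts of members moved with the setting. Against 10 higher and 18 lower members, the share of pairs outside exons as a covariate left 5 and 3, and the unmapped share as a covariate left 7 and 4. Without a covariate, 17.6% of all genes tested were higher and 18.4% lower. The outside-exons covariate gave 14.2% and 11.2% of all genes, and the unmapped covariate 11.7% and 15.3%. Members lower numbered 9 with the stricter filter on low counts (CPM of at least 1 in 3 libraries), 10 with the first stranded column and 9 with the second stranded column. The lower share of all genes tested was 20.1% with that filter and 17.3% and 17.6% with the first and second stranded columns. Mitochondrial members higher numbered 3 in the report and 1 with either covariate, 1 with the length trend removed and 1 with libraries under 40% unmapped only, a setting that also gave 2 mitochondrial members lower. That setting keeps 1 knockout library, assumed to vary like the wild type, so it tests that library and not the genotype. Leaving out each library gave 2 to 17 members higher, 4 to 44 lower and 1 to 10 mitochondrial members higher, the highest counts being those without knockout replicate 1. Fewer libraries are fitted in these settings, and the called share of all genes ran from 19.1% to 43.3%. The cause of the other changes was not tested. The difference in the mitochondrial share of counts, 0.317 percentage points, ranged from 0.155 to 0.453 with a library left out and was 0.319 without mitochondrial rRNA and tRNA genes in the total.

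Deviations from the group means correlated at 0.053, -0.212 and -0.243 between libraries of the same number. Libraries of different number gave -0.105 to 0.253. These deviations sum to 0 within each group, so the values cannot decide whether the libraries are paired. The fit with a replicate block gave 10 members higher and 23 lower, beside 15.5% and 18.0% of all genes tested. Library totals alone moved the median of all genes to 0.10 and no filter on low counts moved it to 0.26, from 0.05. With libraries under 40% unmapped only, and so knockout replicate 1 alone, the log2 fold change was of the other sign at 0.27 for Atp5g3, -0.49 for mt-Atp8, -0.063 for mt-Co2 and -0.54 for mt-Nd4l, the cause not being tested. Of 1987 comparisons of a named gene with an alternative, 1666 kept their side of the threshold without a called change of sign, 273 lost a call and 44 gained one. Of those 1666, 63 values in 18 genes had another sign, called in neither fit.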
